A study of Mus musculus with 33 samples.

Results

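Serum amyloid A, orosomucoid and lipocalin 2 are secreted proteins of the acute-phase response, and 8 mouse genes of these families were described here: Saa1, Saa2, Saa3, Saa4, Orm1, Orm2, Orm3 and Lcn2. They were taken by symbol from the table of gene counts, in which all 8 of 8 were found among 19169 genes, and all 8 passed the filter on low counts that left 14934 genes for testing. Polyadenylated RNA of mouse liver was measured in 33 libraries from 4 groups. The knock-in (KI) groups carried the tamoxifen-inducible genotype labelled Nlrp3A350V/+CreT, a mutant allele of Nlrp3, which encodes the sensor of an inflammasome. The other groups were labelled WT. For 6 weeks the mice ate control chow with placebo (called control) or a diet (called ASK1i) with the compound GS-444217, which selectively inhibits the stress kinase ASK1. The WT libraries numbered 10 on control chow, 7 from females and 3 from males, and 8 on the inhibitor, 4 of each sex. The KI libraries numbered 5 on control chow, 1 from a female and 4 from males, and 10 on the inhibitor, 5 of each sex. The sources used here do not give the age of the mice, the promoter that drives the recombinase, or whether WT mice received tamoxifen or carried CreT.

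Acute-phase proteins are made mainly by hepatocytes when cytokines such as interleukin-1, interleukin-6 and tumour necrosis factor reach the liver, and their genes are classic targets of NF-kappaB, STAT3 and C/EBP factors. Saa1 and Saa2 encode the inducible serum amyloid A proteins that travel on high-density lipoprotein, Saa3 encodes a form made in the mouse also by macrophages and other cells outside the liver parenchyma, and Saa4 encodes the constitutive form. Orosomucoids, or alpha-1-acid glycoproteins, are carriers of basic drugs and lipids in plasma, and lipocalin 2 binds bacterial siderophores and thereby withholds iron; it is also a granule protein of neutrophils.

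The copies within a family share sequence, and the counts of each copy depend on how shared reads were divided among them. The 4 Saa genes lie next to each other on chromosome 7 of mm10, Saa3 at chr7:46711998-46715676, Saa4 at chr7:46727999-46732543, Saa1 at chr7:46740499-46742980 and Saa2 at chr7:46751833-46754314. The Orm genes lie on chromosome 4, Orm1 at chr4:63344566-63348162, Orm3 at chr4:63356162-63359511 and Orm2 at chr4:63362449-63365877, and Lcn2 stands alone at chr2:32384637-32387739. Coding sequences of Saa1 and Saa2 were identical at 95.1% of 366 aligned bases, whereas Saa1 matched Saa3 at 75.9% and Saa4 at 65.0%. Orm1 matched Orm2 at 89.9%, Orm1 matched Orm3 at 86.0% and Orm2 matched Orm3 at 87.9%. The stretches below, coding bases 70 to 189 of Saa1 and Saa2 and 139 to 258 of Orm1 and Orm2 (GENCODE vM21 transcripts, 5′ to 3′), are shown because they hold many of the bases by which reads of these pairs can be told apart. Capitals mark the differences within the stretch, 12 of the 18 in the coding sequence of the Saa pair and 26 of the 63 of the Orm pair.
Saa1: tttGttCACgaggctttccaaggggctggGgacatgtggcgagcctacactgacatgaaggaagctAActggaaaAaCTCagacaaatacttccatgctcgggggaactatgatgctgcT
Saa2: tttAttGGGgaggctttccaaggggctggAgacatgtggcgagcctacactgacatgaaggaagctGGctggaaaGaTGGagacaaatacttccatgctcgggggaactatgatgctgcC
Orm1: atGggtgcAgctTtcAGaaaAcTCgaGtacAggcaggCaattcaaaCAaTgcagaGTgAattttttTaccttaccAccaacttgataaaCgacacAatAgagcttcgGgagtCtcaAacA
Orm2: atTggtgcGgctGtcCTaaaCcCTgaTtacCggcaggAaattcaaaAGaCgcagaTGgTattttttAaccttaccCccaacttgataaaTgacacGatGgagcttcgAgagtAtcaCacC
Of all 50-base windows along the transcript, 14.8% in Saa1 and 13.3% in Saa2 also occurred in another member, against 20.4% in Orm1, 21.8% in Orm2, 3.59% in Orm3, 1.78% in Saa3, and 0 in Saa4 and Lcn2. The deposited counts carried fractions, which RSEM writes where it divides reads, in 33 of 33 libraries for Saa1, Saa2 and Orm1, in 32 for Orm2, 21 for Orm3 and 14 for Saa3, and in 0 for Saa4 and Lcn2. Saa1, Saa2, Orm1 and Orm2 are therefore uncertain one by one, and family sums are given beside them.

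The 250 bases before the annotated start were available for 7 of the 8 members (RefSeq, GRCm38.p6) and are shown for the Saa genes and Lcn2, because these hold the members with the largest and the smallest differences between genotypes. Sequences read 5′ to 3′ on the strand of the gene, and capitals mark matches on either strand to TTNNGNAA, a loose form of the C/EBP site. Saa1 is on the minus strand (chr7:46742981-46743230), Saa2 on the plus strand (chr7:46751583-46751832), and Saa3 (chr7:46715677-46715926), Saa4 (chr7:46732604-46732853) and Lcn2 (chr2:32387740-32387989) on the minus strand.
Saa1: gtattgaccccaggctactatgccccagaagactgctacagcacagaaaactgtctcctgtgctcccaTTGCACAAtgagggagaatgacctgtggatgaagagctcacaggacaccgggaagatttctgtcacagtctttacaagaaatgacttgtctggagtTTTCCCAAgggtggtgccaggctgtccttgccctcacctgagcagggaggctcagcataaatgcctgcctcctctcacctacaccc
Saa2: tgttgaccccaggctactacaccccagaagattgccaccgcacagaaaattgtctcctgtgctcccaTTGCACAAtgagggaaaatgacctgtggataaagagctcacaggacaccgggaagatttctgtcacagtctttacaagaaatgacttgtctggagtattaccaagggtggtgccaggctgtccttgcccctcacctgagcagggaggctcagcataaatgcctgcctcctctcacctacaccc
Saa3: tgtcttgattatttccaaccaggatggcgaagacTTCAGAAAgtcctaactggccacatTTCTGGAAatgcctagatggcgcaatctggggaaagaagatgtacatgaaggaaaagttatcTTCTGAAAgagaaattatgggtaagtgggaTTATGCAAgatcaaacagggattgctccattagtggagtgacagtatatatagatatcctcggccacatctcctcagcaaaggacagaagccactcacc
Saa4: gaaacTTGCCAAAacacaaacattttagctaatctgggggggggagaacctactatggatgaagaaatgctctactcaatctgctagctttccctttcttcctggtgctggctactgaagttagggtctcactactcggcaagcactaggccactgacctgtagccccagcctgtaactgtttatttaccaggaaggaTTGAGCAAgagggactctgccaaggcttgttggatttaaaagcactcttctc
Lcn2: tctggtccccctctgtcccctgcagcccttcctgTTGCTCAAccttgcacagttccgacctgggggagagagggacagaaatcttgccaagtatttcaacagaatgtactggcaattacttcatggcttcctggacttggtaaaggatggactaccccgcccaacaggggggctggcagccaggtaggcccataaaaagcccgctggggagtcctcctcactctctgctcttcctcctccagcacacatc
The Saa1 and Saa2 windows were identical at 94.8% of aligned bases. A match stood in all 7 of 7 windows, 2 in Saa1, 1 in Saa2, 4 in Saa3, 2 in Saa4, 1 in Lcn2, and also in Orm2 and Orm3, and 36.8% of 32851 mouse promoter windows of the same length held at least 1. Saa4 thus held matches as the inducible members did. A match to the NF-kappaB consensus, found in 7.25% of all windows, or to TTCNNNGAA of the STAT factors, found in 7.02%, was in none of the 7 windows. These are matches of letters only, and say nothing of binding.

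Total counts per library lay between 28099685 and 40008114. Nlrp3 was at 1.62 to 4.96 CPM (counts scaled to TMM-normalised library size) in the 10 WT control libraries and 7.87 to 15.6 CPM in the 5 KI control libraries, and the counts do not show the mutation itself. Map3k5, which encodes ASK1, was at 28.0 to 63.9 CPM in WT control and 17.9 to 25.0 CPM in KI control. Among the KI ASK1i libraries, replicate 5 (a female) stood apart. Its Nlrp3 was at 2.10 CPM, and 6 of the 8 members lay within the range of the 18 WT libraries in it. Orm1 at 613.8 CPM and Saa4 at 179.6 CPM lay below the lowest WT libraries, at 704.8 and 182.5 CPM. It was kept under its label, and values without it are given where it matters. Titles carry an L code of unstated meaning, and no L code is shared by the control libraries of the 2 genotypes, so that code and the genotype on control chow cannot be told apart outside a joint model. Defining markers of hepatocytes were present throughout, with 9 of them summing to 111090 to 140119 CPM in WT control and 35870 to 54521 CPM in KI control. Most of that sum was Alb, serum albumin, at a mean of 101556 CPM in WT control and 30636 CPM in KI control. The median log2 difference of the 9 markers between KI and WT on control chow was -0.53.

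The inducible serum amyloid genes were the most abundant members in KI liver and were low in WT liver. Saa1 in the 10 WT control libraries ran from 33.9 CPM to 259 CPM with a median of 86.7, and in the 5 KI control libraries it was at 7611, 10038, 11977, 13692 and 20474 CPM. Saa2 ran from 9.20 CPM to 50.9 CPM in WT control with a median of 18.7, and was at 6449, 9308, 11266, 12689 and 20765 CPM in KI control. Every KI library stood above every WT library for both genes, with no overlap. Saa1 was higher in KI by 6.49 on the log2 scale (SE 0.61, n = 5 and 10, edgeR quasi-likelihood adjusted p = 3.11e-09), a 90.2-fold difference. Saa2 was higher by 8.70 (SE 0.68, edgeR adjusted p = 5.58e-10), or 415-fold. Their sum, which does not depend on how shared reads were divided between the pair, was higher by 7.18 (SE 0.64, edgeR adjusted p = 1.81e-09), or 145-fold.

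Saa3 was lower in level than the Saa1 and Saa2 pair in KI liver, and its KI libraries spread most. It was at 8.30 to 24.1 CPM in WT control (median 12.5) and at 249, 395, 713, 1234 and 1426 CPM in KI control. The groups did not overlap, and Saa3 was higher in KI by 5.40 (SE 0.69, edgeR adjusted p = 2.00e-07). Saa4, the constitutive form, behaved otherwise on control chow. It was at 182 to 839 CPM in WT control (median 301) and at 287, 346, 381, 438 and 733 CPM in KI control. These ranges overlapped, and the difference of 0.20 (SE 0.28, 95% interval -0.35 to 0.75, edgeR adjusted p = 0.563) did not pass the test. The highest WT levels of Saa4, 650 and 839 CPM, came from the 2 male WT control libraries with P numbers. With the L code in place of the title set the difference was -0.61 (edgeR adjusted p = 0.264), so its sign is not settled.

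The orosomucoids were higher in KI as well, from a higher base. Orm1 was the most abundant member in WT control at 711.2 to 1087 CPM (median 861), and was at 5792, 7032, 8464, 8585 and 8613 CPM in KI control. Orm2 was at 51.1 to 213 CPM in WT control (median 78.5) and at 2235, 2294, 2416, 2420 and 3309 CPM in KI control. Orm3 was at 9.04 to 26.5 CPM (median 16.0) against 74.0, 79.1, 87.4, 94.5 and 131 CPM. No KI library of the 5 fell into the WT range for any of the 3. The differences were 3.02 for Orm1 (SE 0.29), 4.69 for Orm2 (SE 0.49) and 2.59 for Orm3 (SE 0.33), with edgeR adjusted p of 2.83e-09, 9.96e-09 and 1.98e-07. The Orm sum was higher by 3.29 (SE 0.30), or 9.77-fold.

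Lcn2 was at 15.2 to 122 CPM in WT control (median 53.7) and at 3892, 4118, 5915, 6016 and 6764 CPM in KI control. The groups lay far apart, and Lcn2 was higher in KI by 6.80 (SE 0.61, edgeR adjusted p = 1.93e-09), or 111.7-fold.

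On control chow 7 of the 8 members were thus higher in KI and 0 lower, where 56.7% of all 14934 genes passed in either direction and 27.8% passed as higher. The 7 were also the members whose groups did not overlap, as in 16.3% of all genes with KI above WT. The median log2 difference was 5.05 over the 8 members and -0.03 over all genes. Together the 8 members took 0.111% to 0.219% of all counts in WT control and 2.91% to 6.46% in KI control.

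**Figure D1:**
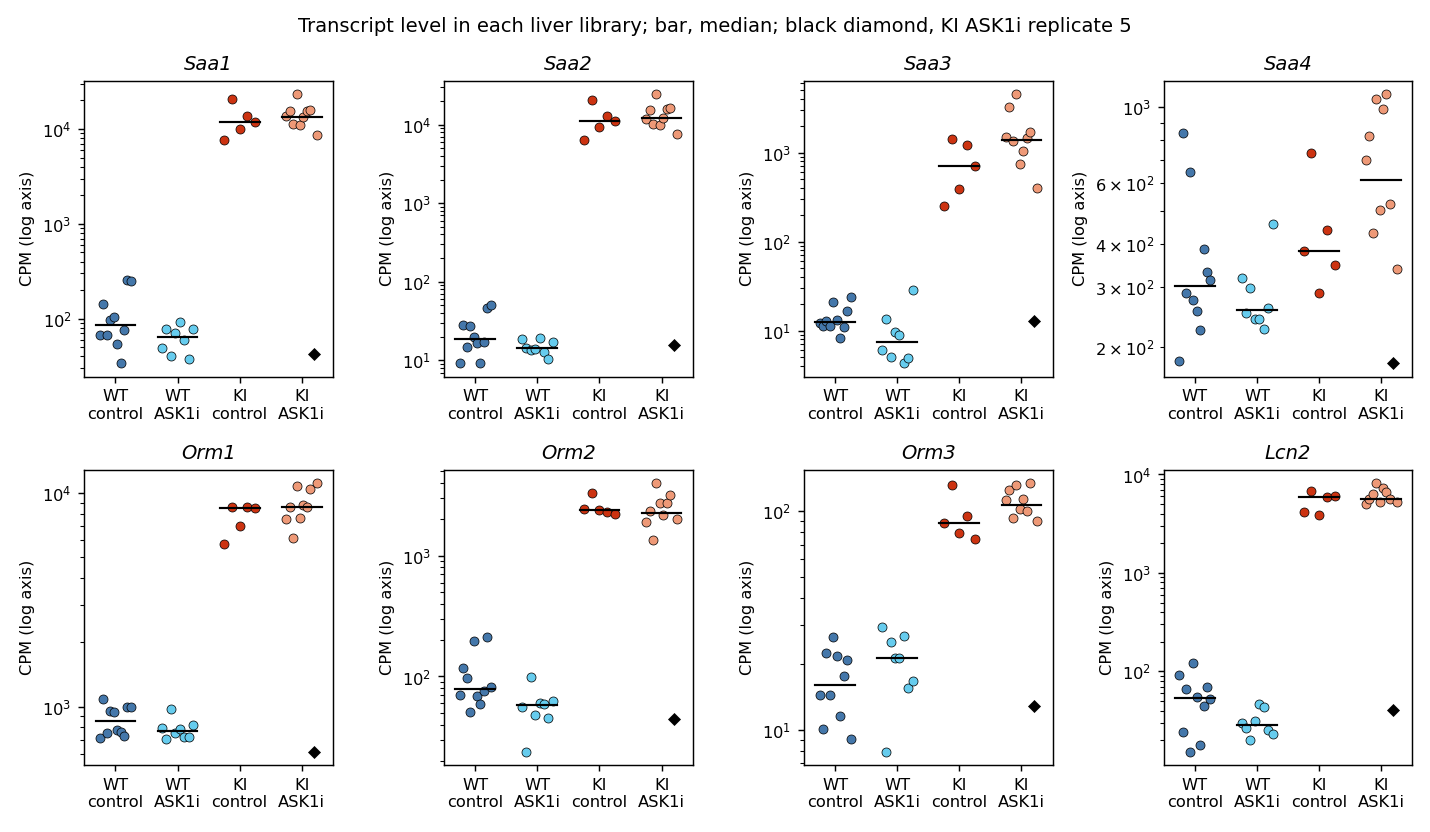
CPM on TMM-normalised library sizes (log axis) of each member in each of the 33 libraries by group; points are libraries and bars are group medians. For all members except Saa4 the 5 KI control libraries lie above all 10 WT control libraries, and the black diamond, KI ASK1i replicate 5, lies within or just below the WT range in all 8 panels.

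On the ASK1i diet all 8 of 8 members were higher in KI than in WT, where 59.1% of all genes passed in either direction and 30.3% as higher. Saa1 was at 37.1 to 91.3 CPM in the 8 WT ASK1i libraries (median 64.7) and, in the 10 KI ASK1i libraries, at 42.8 to 23121 CPM (median 13543). The low end was replicate 5, and the other 9 KI libraries stood above every WT library. The same 9 of 10 held for Saa2, Saa3, Orm1, Orm2, Orm3 and Lcn2, and 7 of 10 for Saa4. Every KI library stood above every WT library for 2.36% of all genes, and without replicate 5, 13.0%. The differences were 7.62 for Saa1 (SE 0.67), 9.53 for Saa2 (SE 0.74), 7.16 for Saa3 (SE 0.72) and 7.54 for Lcn2 (SE 0.63). Orm1, Orm2 and Orm3 differed by 3.27, 5.25 and 2.28 (SE 0.27, 0.49 and 0.29).

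Saa4 was at 226 to 458 CPM in WT ASK1i (median 256) and 180 to 1089 CPM in KI ASK1i (median 614). It was higher in KI by 1.05 (SE 0.25, n = 10 and 8, edgeR adjusted p = 0.00055), or 2.07-fold, the smallest difference of the 8 members. In male libraries alone the difference was 0.64 (edgeR adjusted p = 0.0661) and did not pass, and in female libraries alone it was 1.54 (edgeR adjusted p = 0.00467). Within the libraries coded L1, 4 KI ASK1i against 2 WT ASK1i, all 8 members were higher. Saa1 differed by 8.58, Orm1 by 3.44, Lcn2 by 8.07 and Saa4 by 1.47 (edgeR adjusted p = 0.00686 for Saa4). In that fit, which had no term for sex, 5293 of 15196 genes passed in either direction, 51.05% of them as higher. Within L7, 1 KI ASK1i and 4 KI control libraries against 2 WT ASK1i libraries were fitted together. There the KI ASK1i library was higher by 7.93 for Saa1, by 7.71 for Lcn2 and by 1.00 for Saa4. That arm is 1 library, assumed to vary like the others, and these are given as values without a call.

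**Figure D2:**
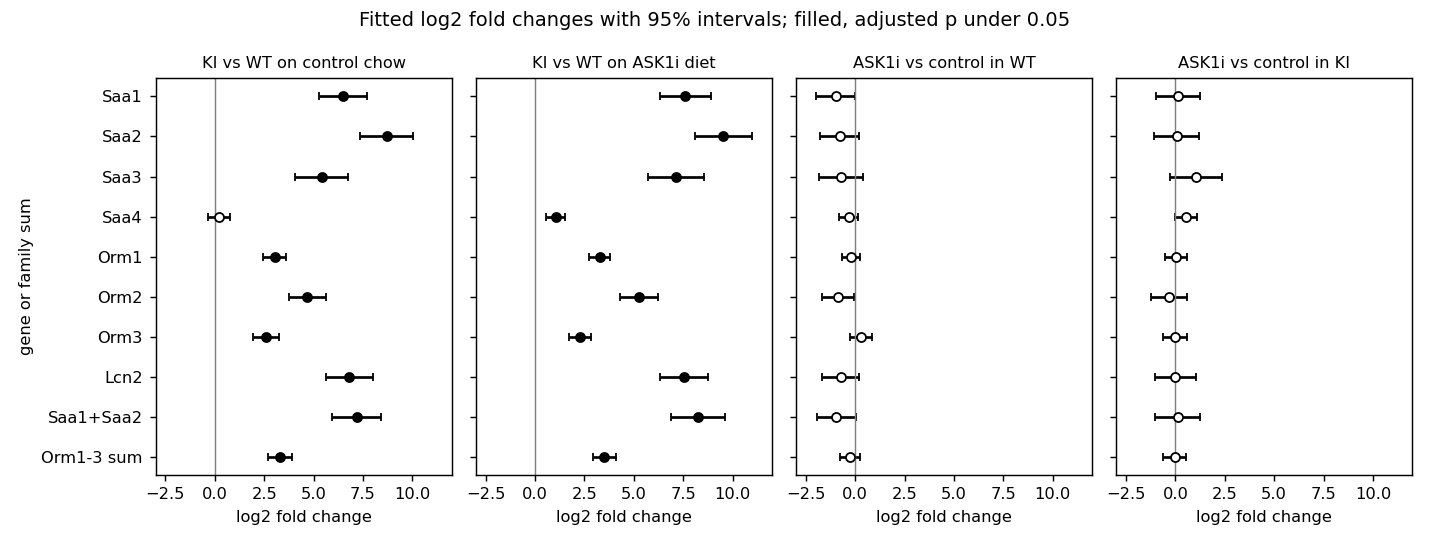
Log2 fold change of each member and of 2 family sums in 4 comparisons from 1 edgeR model. Bars are approximate 95% intervals from a normal quantile, and filled points have an edgeR adjusted p under 0.05. Saa2 has the largest genotype difference on both diets (8.70 and 9.53), Saa4 passes on the ASK1i diet alone, and no point is filled in the 2 diet comparisons.

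The inhibitor passed the test for 0 of the 8 members in either genotype by edgeR, and for 0 by DESeq2 and by limma-voom. In WT liver 1.40% of all genes passed. An unadjusted edgeR p under 0.05 was found for 1 member, Orm2, and for 2079 of all 14934 genes. Without KI ASK1i replicate 5, which entered the shared estimate of the spread, 4 members had such a p (Orm2, Saa1, Saa2 and Lcn2). So did 2471 of 14928 genes, and 0 members passed after adjustment. Saa1 had a mean of 115 CPM ± 78.7 (SD, n = 10) on control chow and 62.9 CPM ± 19.6 (n = 8) on the inhibitor, a difference of -0.997 (SE 0.49, edgeR adjusted p = 0.367). Orm2 was at 103 CPM ± 57.0 against 56.8 CPM ± 21.4, a difference of -0.88 (SE 0.41, edgeR adjusted p = 0.329). Lcn2 was at 55.7 CPM ± 33.5 against 30.8 CPM ± 9.52, a difference of -0.74 (SE 0.48, edgeR adjusted p = 0.525). For Saa1, Saa2, Orm2 and Lcn2 all 8 of 8 WT ASK1i libraries lay below the WT control mean, with 3 of 8 below every control library for Orm2 and 0 of 8 for the other 3 genes. Without KI ASK1i replicate 5 the estimates moved little while the standard errors fell, to -0.97 (SE 0.30, edgeR adjusted p = 0.0822) for Saa1, -0.83 (SE 0.25, adjusted p = 0.0737) for Orm2, -0.75 (SE 0.27, adjusted p = 0.132) for Saa2 and -0.67 (SE 0.28, adjusted p = 0.203) for Lcn2. Within the libraries coded L6, 4 of each diet, Saa1, Orm2 and Lcn2 differed by -1.09, -1.21 and -0.58. None of these passed (edgeR adjusted p = 0.506, 0.421 and 0.354). That fit had no term for sex, and its control libraries were mostly female and its inhibitor libraries mostly male. Diet and sex are thus mixed in it.

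In KI liver the levels on the 2 diets overlapped for every member, and 0.0536% of all genes passed. An unadjusted edgeR p under 0.05 was found for 0 members and for 1539 of 14934 genes. Without replicate 5 it was found for 2 members, Saa4 and Saa3, and for 1325 of 14928 genes. Lcn2 had a mean of 5341 CPM ± 1265 (SD, n = 5) on control chow and 5521 CPM ± 2174 (n = 10) on the inhibitor, a difference of 0.00 with a 95% interval of -1.05 to 1.05. Saa1 and Saa2 together differed by 0.12 (interval -1.03 to 1.26) and the Orm sum by -0.04 (interval -0.63 to 0.55). Without replicate 5 the differences were 0.13 (SE 0.32) for Lcn2, 0.26 (SE 0.35) for Saa1 with Saa2 and 0.10 (SE 0.12) for the Orm sum, whose sign thus turned, with edgeR adjusted p of 0.927, 0.846 and 0.839. The largest estimates were those of Saa3 and Saa4. Saa3 was at 249 to 1426 CPM on control chow and at 12.9 to 4511 CPM (median 1399) on the inhibitor, a difference of 1.04 (SE 0.67, edgeR adjusted p = 0.562). The 2 highest Saa3 libraries, at 3230 and 4511 CPM, were both L1 females on the inhibitor, and the control group holds 1 L1 library, a male at 1426 CPM. Within L1, the 4 inhibitor libraries differed from that 1 control library by 0.88, a value with no replicate of the control. Saa4 differed by 0.53 (SE 0.29, edgeR adjusted p = 0.517). Without replicate 5 the differences were 1.18 for Saa3 (adjusted p = 0.53) and 0.62 for Saa4 (adjusted p = 0.504).

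The test of whether the genotype difference changed with diet gave 0 members and 0 of all genes by edgeR, with 1251 genes at an unadjusted p under 0.05, whereas DESeq2 gave 16 genes and limma-voom 2, with 0 members by either. Saa4 had the smallest p of the 8, with a difference of 0.85 (SE 0.38, p = 0.0346, edgeR adjusted p = 0.571), followed by Saa3 at 1.75 (SE 0.93, p = 0.0688, edgeR adjusted p = 0.633). Without replicate 5, 5 members in place of 1 had an unadjusted edgeR p under 0.05, as did 1437 of 14928 genes. These members were Saa4 at 0.93 (p = 0.0111), Saa1 at 1.24 (p = 0.0149) and Saa3 at 1.82 (p = 0.0178). The others were Orm1 at 0.35 (p = 0.0284) and Saa2 at 0.94 (p = 0.0319). None of the 8 passed after adjustment by edgeR, where these 5 had adjusted p of 0.39, 0.422, 0.438, 0.466 and 0.471. That Saa4 passed on the ASK1i diet and not on control chow is therefore not shown to be a difference between diets.

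The members of a family did not keep their proportions between genotypes. Of the counts of Saa1 and Saa2 together, Saa2 took 12.2% to 23.5% in WT control (median 17.6%) and 15.6% to 27.7% in WT ASK1i (18.0%). In KI libraries its share was 45.9% to 50.4% on control chow (48.1%) and 26.7% to 51.1% on the inhibitor (47.5%), the lowest being replicate 5. Saa1 thus led in every WT library, and the 2 copies were near parity in every KI library other than replicate 5. On control chow the Saa2 share was 48.2% ± 1.59 (SD, n = 5) in KI and 18.1% ± 3.42 (n = 10) in WT, a difference of 30.1 percentage points (two-sided exact permutation p = 0.000333, the smallest that 3003 splits allow, adjusted p = 0.000666 over 8 share tests). On the ASK1i diet the difference was 26.3 points (exact permutation p = 4.57e-05, adjusted p = 0.000366), and 28.5 points without replicate 5. It held within L1, where the share was 47.6% to 51.1% in 4 KI ASK1i and 25.3% to 27.7% in 2 WT ASK1i libraries, and within L7, where it was 45.9% to 48.5% in 4 KI control, 46.3% in 1 KI ASK1i and 18.0% to 21.9% in 2 WT ASK1i libraries. A share of 2 copies does not depend on library scaling, but it does depend on how shared reads were divided.

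Orm2 moved in the same way within its family. It took 5.03% to 17.3% of Orm counts in WT control and 20.7% to 29.2% in KI control, a difference of means of 14.7 points (exact permutation p = 0.000333, adjusted p = 0.000666). On the ASK1i diet it took 3.22% to 9.04% in WT and 6.62% to 26.8% in KI, a difference of 13.6 points (exact permutation adjusted p = 0.000666), with replicate 5 lowest in KI. In WT liver the Orm2 share was 10.1% ± 4.05 (n = 10) on control chow and 6.44% ± 1.66 (n = 8) on the inhibitor, a difference of -3.63 points (exact permutation p = 0.0227, adjusted p = 0.0364). That call was lost when any of 7 of the 18 libraries was left out, with an exact permutation adjusted p of up to 0.093. The share tests had no term for sex or title set, in which the groups are unbalanced. In KI it was 24.7% on control chow and 20.1% on the inhibitor (exact permutation adjusted p = 0.184). Saa4 took between 49.4% and 82.7% of all Saa counts in WT control, and between 1.42% and 2.59% in KI control, where its own level did not pass the test.

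**Figure D3:**
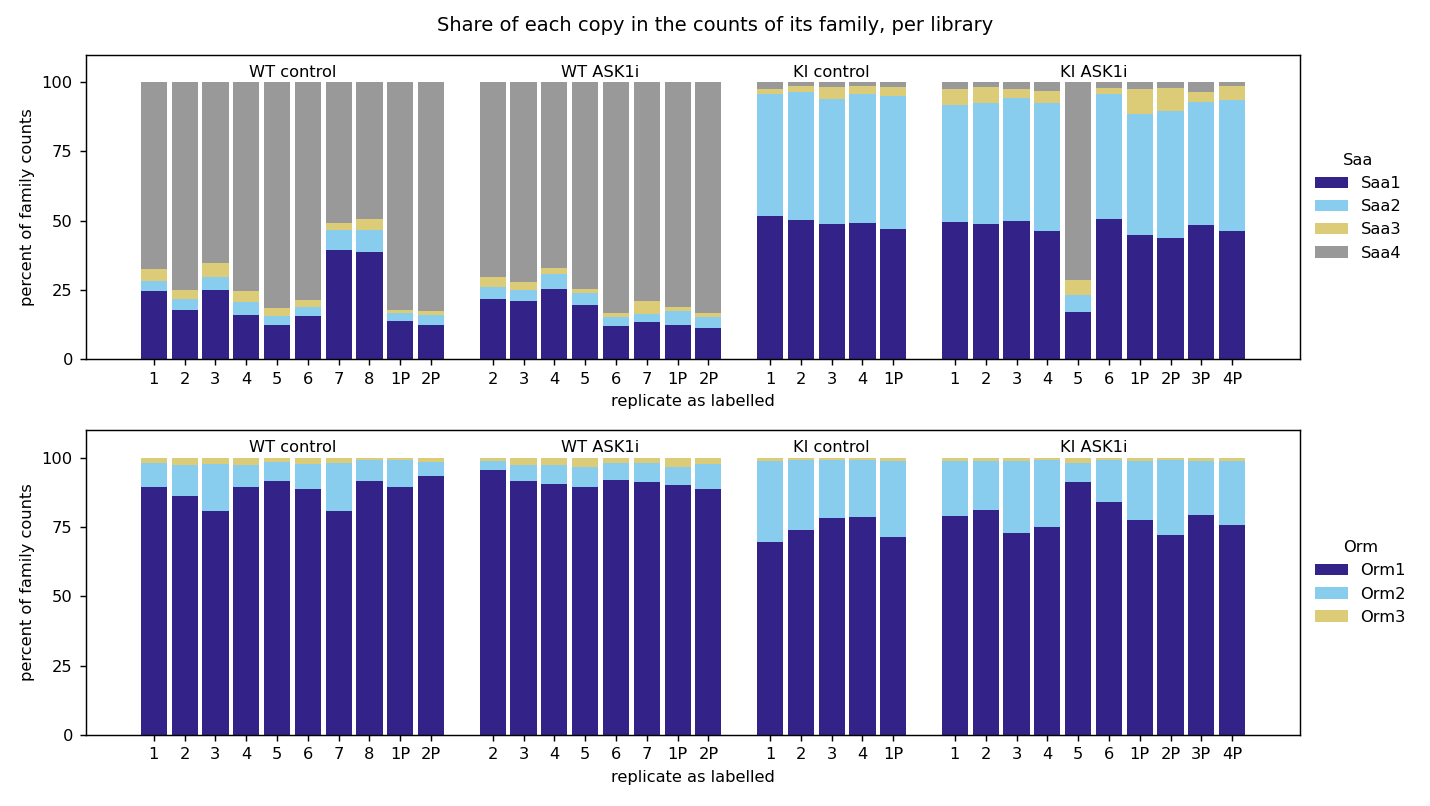
Percent of the counts of the Saa family (upper row) and of the Orm family (lower row) held by each copy, 1 bar per library, grouped by genotype and diet. Saa4 holds most Saa counts in WT control (49.4% to 82.7%) and 1.42% to 2.59% in KI control, and KI ASK1i replicate 5 has the WT pattern.

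Per kilobase of transcript, which allows levels of different genes to be set side by side, the order in WT control was Orm1 (mean 1123 CPM per kilobase), Saa1 (189), Saa4 (179), Orm2 (133), Lcn2 (60.9), Saa2 (39.6), Saa3 (25.6) and Orm3 (21.8). Orm1, at 918 to 1403, lay above every library of every other member, and from Saa1 down each neighbour overlapped the next. In KI control the order was Saa1 (20950), Saa2 (19960), Orm1 (9932), Lcn2 (5837), Orm2 (3271), Saa3 (1448), Saa4 (209) and Orm3 (121). There Saa1 and Saa2 overlapped, as did Saa2 with Orm1, Lcn2 with Orm2, and Saa4 with Orm3, while Orm1 lay above Lcn2, Orm2 above Saa3 and Saa3 above Saa4 without overlap. The rank of Saa4 rests on its transcript model of 2094 bases, against 555 to 915 bases for the others.

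Among the 14 KI libraries other than replicate 5, the members varied together to different degrees, over 10 pairs of log2 CPM values. The sum of Saa1 and Saa2 was most closely tied to Saa3 (Pearson's r = 0.885, permutation adjusted p = 0.0007, and Spearman's rho = 0.855, adjusted p = 0.0015, n = 14). Without the 2 libraries farthest from the median r was 0.768. The sum also followed Saa4 (r = 0.742, permutation adjusted p = 0.00545; rho = 0.789, adjusted p = 0.00595; r = 0.68 without 2 libraries) and Lcn2 (r = 0.747, permutation adjusted p = 0.00545; rho = 0.719, adjusted p = 0.0135; r = 0.529 without 2 libraries). With the Orm sum it gave r = 0.608 (permutation adjusted p = 0.03) and rho = 0.688 (permutation adjusted p = 0.0159). Without 2 libraries r fell to 0.302, so the size of r depends on them. The Orm sum and Lcn2 gave r = 0.5 (permutation adjusted p = 0.0852; rho = 0.521, adjusted p = 0.0741) and did not pass. In the 18 WT libraries the sum of Saa1 and Saa2 varied with the Orm sum (r = 0.662, permutation adjusted p = 0.0218; rho = 0.558, adjusted p = 0.059; r = 0.5 without 2 libraries). Saa4 and the Orm sum gave r = 0.554 (permutation adjusted p = 0.0516; rho = 0.682, adjusted p = 0.0164; r = 0.38 without 2 libraries). The sum of Saa1 and Saa2 also varied with Saa3 at low levels (r = 0.64, permutation adjusted p = 0.0218; rho = 0.668, adjusted p = 0.0164; r = 0.554 without 2 libraries) but not Lcn2 (r = 0.339, permutation adjusted p = 0.211; rho = 0.307, adjusted p = 0.27; r = 0.193 without 2 libraries). Both diets and the L codes are pooled in these values, and their part in them was not tested.

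**Figure D4:**
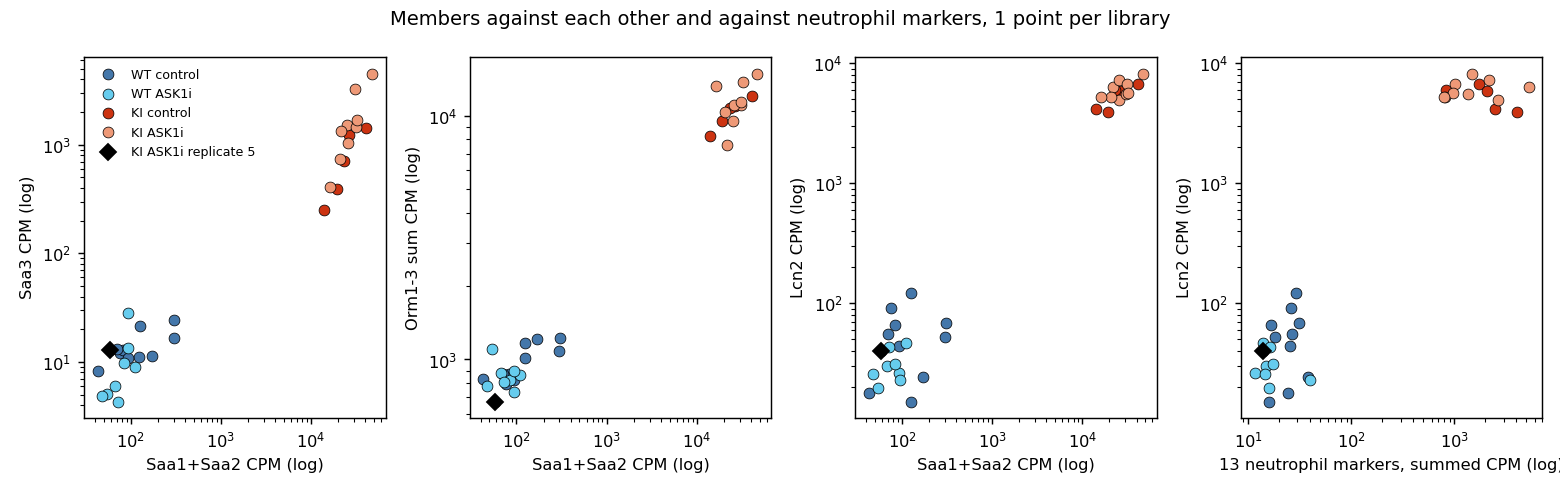
Each point is 1 library, on log axes of CPM: Saa3, the Orm sum and Lcn2 against Saa1 and Saa2 together, and Lcn2 against the summed level of 13 neutrophil markers. KI and WT libraries form separate clusters with KI ASK1i replicate 5 (black diamond) among WT, and within KI Saa3 climbs with Saa1 and Saa2 (r = 0.885, n = 14).

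Genes whose level across the 14 KI libraries had the rank order most like that of a member are given as a description, out of about 12590 candidates with a mean of at least 1 CPM. For Saa1 with Saa2 they were Dnaja1, a co-chaperone of Hsp70 (rho = 0.934), and Ccdc91 (0.912), for Saa3 1600012H06Rik (0.908) and Pnp, a purine nucleoside phosphorylase (0.899). For the Orm sum they were Zfyve9 (0.943) and Farp2 (0.93), and for Lcn2 Gabarapl2, an autophagy protein (0.899), and Galk2 (0.873). Across the 18 WT libraries the rho values of these named genes ran from -0.517 for 1600012H06Rik to 0.026 for Zfyve9. The genes next in rank for each target gave WT values from -0.569 for Rfk (with Saa3) to 0.703 for Gabbr2 (with the Orm sum). Gabbr2 had a rho of 0.921 in KI, so this gene also followed the Orm sum in WT. The next highest WT value was 0.441, for Ywhaq with Saa1 and Saa2. How high the top values would be by chance was not tested.

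Other acute-phase genes moved with the members. Of 22 other positive acute-phase genes, 21 were higher in KI and 0 lower on control chow, and 21 and 0 on the ASK1i diet, with a median log2 difference of 1.65 and 1.96. The gene that did not pass was Crp, C-reactive protein, at 316 CPM ± 103 (SD, n = 10) in WT control and 382 CPM ± 101 (n = 5) in KI control. Serpina3n, an inhibitor of serine proteases, was at 600 CPM ± 80.4 (SD, n = 10) in WT control and 5150 CPM ± 1365 (n = 5) in KI control, a difference of 3.18. Cp, the copper carrier ceruloplasmin, differed by 2.09, Lrg1 by 2.38 and the metalloreductase gene Steap4 by 3.68. Their median was below that of the 8 members. Among all genes 56.7% passed in either direction with control chow, and 27.8% passed as higher. With the ASK1i diet these shares were 59.1% and 30.3%. Against them, of 8 negative acute-phase genes 5 were lower and 1 higher on each diet. Alb, serum albumin, differed by -1.54, Ttr, transthyretin, by -1.50 and Apoa2, an apolipoprotein of high-density lipoprotein, by -1.66. Trf, transferrin, was the 1 that was higher, by 1.84.

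The signals that act on these genes were measured as RNA too. Of 6 measured cytokine genes that induce acute-phase genes 5 were higher in KI with control chow, and all 6 with the ASK1i diet. Il1b differed by 3.14, from 3.63 CPM ± 2.45 (n = 10) to 30.7 CPM ± 13.7 (n = 5), Tnf by 3.05, Lif by 5.10 and Osm by 4.61. Lif and Osm had 0 to 7 and 0 to 5 counts per WT control library, so their fold changes start from almost no reads. Their means were 0.055 and 0.041 CPM in WT control and 2.06 and 0.962 CPM in KI control. Il6 did not pass on control chow (difference 1.42, edgeR adjusted p = 0.0642), at 0.119 CPM ± 0.174 in WT control and 0.247 CPM ± 0.132 in KI control. Of 13 receptor and signal transducer genes 9 were higher and 3 lower on control chow, and 10 and 3 on the ASK1i diet. Over all genes 56.7% and 59.1% passed in either direction on the 2 diets, with 27.8% and 30.3% as higher. Tnfrsf1a, a receptor of tumour necrosis factor, differed by 1.07, Osmr, the oncostatin M receptor, by 2.13 and Socs3, the feedback inhibitor of STAT3, by 2.53, while Il1rap, a subunit of the interleukin-1 receptor, differed by -1.28. Of 6 transcription factor genes 1 was higher and 3 lower on control chow, where 56.7% of all genes passed in either direction. Cebpd was the 1 that was higher, by 2.02, at 2.76 CPM ± 0.871 in WT control and 11.2 CPM ± 4.09 in KI control, and Cebpa and Hnf4a differed by -0.59 and -0.42.

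Of 6 genes for receptors and partners of serum amyloid A, 4 were higher and 0 lower on control chow. For this list and those below, 27.8% of all genes passed as higher and 56.7% in either direction. Fpr2, a receptor on phagocytes, differed by 3.14, the Toll-like receptor genes Tlr4 and Tlr2 by 2.05 and 2.43, and Ager by 1.47. Of 4 genes for receptors and partners of lipocalin 2, 2 were higher and 1 lower. Mmp9, whose protein forms a complex with lipocalin 2, differed by 5.35 and the receptor gene Slc22a17 by 1.02, while Bdh2, an enzyme of the mammalian siderophore pathway, differed by -2.80. Of 6 other lipocalin genes 2 were higher and 4 lower, so the family did not move as 1. Ambp differed by 0.61, C8g, a complement component, by -1.35, Rbp4, the plasma carrier of retinol, by -1.37 and Ptgds by -2.77. With the inhibitor, 0 genes of these lists passed in KI and 1 in WT. That gene was Cd36, a scavenger receptor, at 149 CPM ± 48.8 (n = 10) on control chow and 210 CPM ± 25.4 (n = 8) on the inhibitor (difference 0.60, edgeR adjusted p = 0.0171).

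Markers of white blood cells moved with the genotype as well. All 13 measured neutrophil markers were higher in KI on control chow, and their summed level was 15.8 to 38.1 CPM in WT control and 832 to 4023 CPM in KI control, with none of the 13 at 0 in every library of a group. On the ASK1i diet the sum was 11.6 to 40.1 CPM in WT and 13.9 to 5259 CPM in KI, the lowest being replicate 5. All 10 measured macrophage and monocyte markers were higher too, with sums of 292 to 784 CPM and 1443 to 2089 CPM in WT control and KI control. Lcn2 is stored in the same neutrophil granules as lactoferrin, and Ltf, which encodes it, went from 0.476 CPM ± 0.31 (n = 10) to 153 CPM ± 101 (n = 5), against 5341 CPM ± 1265 for Lcn2 in KI control. Of 7 bile duct markers 2 were higher on control chow, near the 27.8% of all genes, and 3 higher and 1 lower on the ASK1i diet, with sums of 29.6 to 63.6 CPM in WT control and 60.9 to 115 CPM in KI control. Of 9 hepatocyte markers 8 were lower on control chow, and 6 lower and 1 higher on the ASK1i diet. Over all genes 56.7% and 59.1% passed in either direction. In bulk liver more or fewer cells of a type and more or less RNA per cell cannot be told apart, and the part of these markers in the members' levels was not tested.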

How the data were processed

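RNA of 33 mouse liver libraries was prepared with the Qiagen miRNeasy and TruSeq Stranded mRNA kits, per the labels' protocols. The authors deposited RSEM expected counts per gene, not normalised. CASAVA 1.8.2, STAR 2.4, RSEM 1.2.14 and mm10 are named in the submitters' processing notes, while the sources used here give no settings or annotation. RSEM divides reads that match several genes among them. Positions are those given with the deposited table, counted from 1. Whether every library came from its own mouse is not stated in the labels, and p-values measure the spread among libraries only.

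Expected counts were rounded and fitted over all genes with edgeR 4.0.16 in R 4.3.3 (TMM normalisation, filterByExpr by group, robust quasi-likelihood F test, two-sided), with group, sex and title set (numbered, or numbered with a P) as terms. Benjamini-Hochberg adjustment ran over the 14934 genes of each comparison (threshold 0.05). Family sums were fitted as added genes. CPM is on TMM library sizes, fold changes were computed with a prior count of 0.125, and log2 CPM for correlations with a prior count of 2. Correlation p-values come from permutation tests of 100000 resamples, adjusted over 10 pairs per genotype. Family shares were compared with exact permutation tests without terms for sex or title set, a comparison added after seeing the data. The fit was tested on simulated data.

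The members and gene lists were chosen with earlier results of these data known. From each list up to 4 members were named, those with the smallest p for KI against WT on control chow. Cd36, Crp, Il6 and Ltf were named outside that rule, after their values were seen. Alternatives were RLE and library-total scaling, DESeq2 1.42.0, limma-voom (limma 3.58.1), other count filters, unrounded counts, other covariates, a replicate block, subsets of libraries, and each library left out in turn. The L1, L6 and L7 subsets were added after seeing the data, and were fitted with group as the only term.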

Additional observations from a re-analysis of the deposited data

Results flagged for a closer look

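Over 44 groups of values (8 members and 3 sums in 4 groups), 13 held a library set apart from the rest of its group by Dixon's criterion, where chance alone gives about 1 in 20 groups. Of the 13, 10 were KI ASK1i replicate 5, lowest in its group in each. It was at 42.81 CPM for Saa1, 15.6 CPM for Saa2, 12.92 CPM for Saa3, 613.8 CPM for Orm1, 44.45 CPM for Orm2, 12.77 CPM for Orm3 and 40.13 CPM for Lcn2. Its sums were 58.41 CPM for Saa1 with Saa2, 250.9 CPM for the 4 Saa genes and 671 CPM for the 3 Orm genes. The other 3 were high values: 978.5 CPM of Orm1 in WT ASK1i replicate 2P, 3309 CPM of Orm2 in KI control replicate 1P, and 580.3 CPM for the 4 Saa genes in WT ASK1i replicate 7.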

How the results depend on the processing

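The counts of members past the threshold were 7, 8, 0, 0 and 0 (genotype on control chow, genotype on the ASK1i diet, inhibitor in WT, inhibitor in KI, and interaction). They stayed within 1.5 times under every alternative run, other scalings, DESeq2 and limma-voom included. Leaving out each of the 33 libraries gave 7 to 7, 8 to 8, 0 to 0, 0 to 0 and 0 to 0 members, with 7386 to 8926, 8371 to 9435, 101 to 375, 0 to 14 and 0 to 3 genes among all genes, and the highest of the first 3 ranges came without KI ASK1i replicate 5. No called fold change of a member turned its sign in any alternative run, and Saa4 on the ASK1i diet lost its call in male libraries alone (0.64) and in L7 libraries alone (1.00), where the KI ASK1i arm is 1 library assumed to vary like the others. With library totals in place of TMM the median of all genes on control chow was 0.098 in place of -0.03, and 63.3% of called genes were higher in place of 49.0%. Counts over all genes moved by over 1.5 times, or from or to 0, in 69 comparisons across the alternative fits, and stayed within that in 180. Some of these moves were between small counts. On control chow the count was 5103 with the L code and sex and 3686 in female libraries alone, against 8466. For the inhibitor in WT it was 23 with the L code, 19 in numbered libraries and 365 with DESeq2, against 209. The cause was not tested. For the inhibitor in KI, DESeq2 gave 37 and the L code fit 0, against 8. With replicate 5 included 3 correlations in KI passed that had not (Saa3 with the Orm sum 0.866, Saa4 with the Orm sum 0.62, the Orm sum with Lcn2 0.978), and with library totals that of Saa1 and Saa2 with the Orm sum did not pass (0.554). A replicate block with sex gave 7, 8, 0, 0 and 0 members, and 7493, 8202, 133, 0 and 0 genes. Replicate numbers were not shown to pair the libraries. Over 37 pairs of the same number in different groups the correlation of deviations was -0.208 to 0.361 (median 0.022), with 14 above 0.1. Over 363 pairs of other numbers in different groups it was -0.42 to 0.479 (median -0.0057), with 70 above 0.1. Of 33 libraries, 4 correlated best with their own number.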

Other observations

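Saa4 showed no common direction between the sexes across groups, which was not tested. In KI ASK1i the 4 females other than replicate 5 were at 822 to 1089 CPM. All 5 males were below them, the lowest at 339 CPM. In WT control the 3 males were at 315 to 839 CPM and the 7 females at 182 to 386 CPM. In WT ASK1i females were at 226 to 319 CPM and males at 242 to 458 CPM. In KI control the 1 female was at 381 CPM, within the male range of 287 to 733 CPM. Sex is mixed with title set and L code in these values. KI ASK1i females 1P, 2P and 3P are L1 libraries with P numbers, as is 4P among the males. The highest WT control males, 1P and 2P, are L8 libraries with P numbers.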
